A study of Mus musculus with 12 samples.

Results

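The mRNAs of 39 genes, the transcription factor gene Myc and 38 genes for ribosome biogenesis, were followed in C2C12 cells, an immortalized mouse myoblast line, after siRNA depletion of KEAP1, CCNF or both. The genes were chosen by symbol, and all 39 were found among the 54532 genes of the expression table and were among the 15122 that passed the filter on low counts. Every culture received 30 nM siRNA for 48 h in medium with 5% serum by the labels (the study's methods give a higher percentage for this line), and polyA-selected RNA was sequenced from 3 biological replicates in each of 4 groups: siCONTROL (control siRNA), siKEAP1 (siRNA against Keap1, which encodes the CUL3 adaptor for NRF2), siCCNF (siRNA against Ccnf, which encodes cyclin F, a substrate adaptor of the SCF ubiquitin ligase) and siKEAP1/siCCNF (both). The comparison asks which genes change in myoblasts when either adaptor or both are depleted. All groups are one cell line, so the replicates measure the spread between cultures of that line, and the labels do not say which CCNF siRNA was used.

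MYC is a basic helix-loop-helix factor that pairs with MAX, binds DNA at E-boxes and is known for raising the expression of genes for cell growth. Ribosomes are built in the nucleolus: RNA polymerase I transcribes the ribosomal DNA, small nucleolar ribonucleoproteins (snoRNPs) guide methylation and pseudouridylation of the transcript, and large sets of assembly factors cut, fold and package it into the small and the large subunit. Proliferating myoblasts make many ribosomes, and ribosome production is known to decline when muscle cells stop dividing.

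Sequences around the start sites were examined because MYC binds the E-box CACGTG, a motif that reads the same on both strands. RefSeq promoter windows (GRCm38.p6, 250 bases before to 50 bases after the start site) were matched for 32 of the 39 genes and not for the other 7, Myc among them. Of the 32 genes, 7 (21.9%) held CACGTG in a window, beside 8.09% of all 27025 genes in the promoter table. Those 27025 genes were not limited to genes expressed in these cells. The 7 E-boxes are given here 5′ to 3′ on the gene's strand, with the E-box in capitals and the bases around it in lower case.

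Mybbp1a: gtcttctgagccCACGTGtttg
Utp20: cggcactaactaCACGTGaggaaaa
Wdr43: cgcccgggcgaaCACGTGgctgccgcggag
Ltv1: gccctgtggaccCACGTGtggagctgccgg
Pes1: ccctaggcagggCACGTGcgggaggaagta
Nop2: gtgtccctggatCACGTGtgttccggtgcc
Grwd1: gggccggagtcgCACGTGtgaaaccgga

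The Mybbp1a stretch lies at chr11:72441355-72441376 on the plus strand, with the E-box centred 43 bases after the start site. The Utp20 stretch (chr10:88826765-88826789, minus strand) is centred 40 bases after the start site, that of Wdr43 (chr17:71616220-71616249, plus) 20 bases after, that of Ltv1 (chr10:13193092-13193121, minus) 31 bases after and that of Grwd1 (chr7:45830740-45830767, minus) 37 bases after. The Pes1 stretch (chr11:3963965-3963994, plus) is centred 5 bases after the start site. In Nop2 (chr6:125131811-125131840, plus) the E-box was upstream, centred at -57. A wider set of noncanonical E-boxes, which adds CACGCG and the asymmetric motif CATGTG on either strand, was found for 62.5% of the 32 genes and for 30.9% of all genes in the promoter table. A match shows only that these letters are present, and the windows cover the annotated start sites alone.

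The libraries held 18464209 to 37743198 counts. Keap1 was at 90.0, 89.0 and 84.3 CPM (normalized counts, as a rate per library total scaled by TMM) in siCONTROL, 12.3, 12.8 and 12.7 in siKEAP1, 86.5, 88.6 and 80.3 in siCCNF and 22.2, 27.0 and 23.1 in siKEAP1/siCCNF. Ccnf was at 85.5, 80.1 and 77.7 CPM in siCONTROL, 56.8, 64.9 and 56.4 in siKEAP1, 19.7, 20.5 and 21.3 in siCCNF and 23.7, 24.1 and 25.6 in siKEAP1/siCCNF. Both targets fell wherever their siRNA was used (log2 fold change -2.80 ± 0.085 and -1.86 ± 0.080 for Keap1, -1.99 ± 0.076 and -1.73 ± 0.076 for Ccnf), and Ccnf also fell in siKEAP1 (-0.45 ± 0.073, adjusted p = 2.6e-04). The defining myoblast markers Myod1, Myf5, Des, Pax7 and Cdh15 were all measured, while the leukocyte markers Itgam and Cd3e were at 0 in every library and the epithelial markers summed to at most 2.09 and the endothelial markers to at most 2.04 CPM. Within these low sums, the epithelial marker Cdh1 rose in siCCNF (1.95 ± 0.45, adjusted p = 0.0031) and siKEAP1/siCCNF (2.52 ± 0.44, adjusted p = 4.4e-04), from 0.134, 0.380 and 0.241 CPM in siCONTROL and 0.186, 0.284 and 0.175 in siKEAP1 to 1.14, 0.661 and 1.05 and 1.43, 1.94 and 0.879, the groups in which most of the 39 genes rose, and its part in their changes was not tested. The 4 leukocyte markers summed to 5.39 to 10.1 CPM in siKEAP1, mostly Cd68, and to at most 3.51 CPM in the other groups. In siCONTROL replicate 1 and siKEAP1/siCCNF replicate 3 the deviation from the group mean followed gene length across the tested genes (r = -0.31 and -0.28, against -0.094 to 0.21 in the other 10 libraries), so calls that appear or disappear without these libraries are given with the results.

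Per length of gene as given in the table, which need not be that of the main transcript, the 39 genes spanned a wide range. FPKM is the fragment count relative to the library total and to that gene length. By FPKM, Npm1, which encodes the abundant nucleolar protein nucleophosmin, was highest in every group, at 173 ± 26.9 FPKM (mean ± SD, n = 3) in siCONTROL. Ncl (nucleolin) followed at 66.0 ± 4.30 FPKM in siCONTROL. Nhp2 came next by the mean over all libraries, and in siCONTROL its 35.5 ± 9.15 FPKM lay beside 35.6 ± 4.16 of Bop1. Myc ranked 19 of 39 by its mean over all libraries, at 12.6 ± 0.905 FPKM in siCONTROL. The lowest by this measure were the RNA polymerase I subunit gene Polr1b at 2.69 ± 0.120 FPKM and Wdr12 at 2.07 ± 0.369 FPKM. Many neighbours in this order lay within their replicate SD, such as Nolc1 at 17.0 ± 0.270 and Fbl at 16.2 ± 3.15 FPKM. All values below are in CPM, a scale on which a gene is compared only with itself, and differences are log2 fold changes ± SE, tested by the edgeR quasi-likelihood method and adjusted over all 15122 genes after Benjamini and Hochberg. A gene is said to rise or fall where its adjusted p is under 0.05.

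Myc mRNA was higher wherever CCNF was depleted. Myc (ENSMUSG00000022346) lies at chr15:61985391-61990374 on the plus strand (GRCm38), and its values here cover all its exons. It was at 36.2, 31.5 and 35.5 CPM in siCONTROL, 32.4, 35.6 and 33.1 in siKEAP1, 48.1, 55.1 and 53.6 in siCCNF and 48.4, 48.6 and 51.4 in siKEAP1/siCCNF. The 6 libraries with CCNF depletion were all above the 6 without it, and the order of the group means was siCCNF, siKEAP1/siCCNF, siCONTROL, siKEAP1. Myc rose in siCCNF (0.60 ± 0.077, adjusted p = 3.2e-05) and in siKEAP1/siCCNF (0.52 ± 0.078, adjusted p = 1.2e-04) against siCONTROL. It also rose in siKEAP1/siCCNF against siKEAP1 (0.55 ± 0.077, adjusted p = 5.8e-05). The neighbours in the order did not pass the test: siKEAP1 against siCONTROL gave -0.031 ± 0.078, adjusted p = 0.79, and siKEAP1/siCCNF against siCCNF gave -0.079 ± 0.076, adjusted p = 0.66. The effect of siKEAP1 on Myc did not differ detectably between cells with and without CCNF depletion (interaction -0.048 ± 0.11, adjusted p = 0.80).

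**Figure D1:**
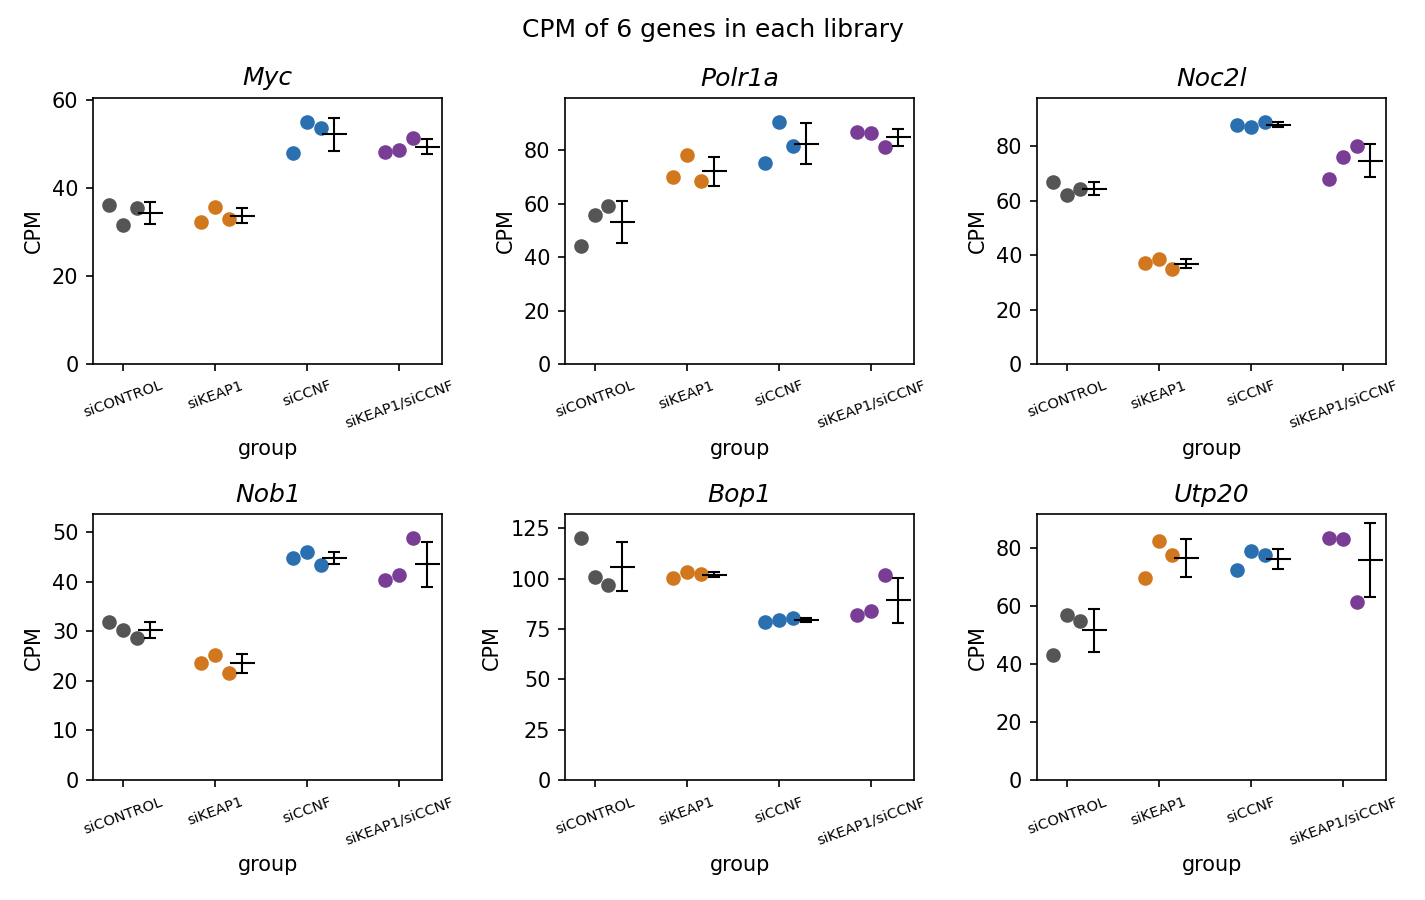
CPM of Myc, Polr1a, Noc2l, Nob1, Bop1 and Utp20 (vertical axes, from 0) in each of the 12 libraries (points, coloured by group), with the group mean ± SD (n = 3) beside them. Myc and Nob1 are higher in the 6 libraries with CCNF depletion than in the other 6, and Noc2l is lowest in siKEAP1.

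Across the 39 genes, the called changes after CCNF depletion, alone or with KEAP1 depletion, were mostly rises, and those after KEAP1 depletion alone went in both directions. In siKEAP1 against siCONTROL, 10 members (25.6%) rose and 4 (10.3%) fell, with 20.4% of all tested genes higher and 20.2% lower. In siCCNF against siCONTROL, 22 members (56.4%) rose and 3 (7.69%) fell, with 22.5% of all tested genes higher and 25.5% lower. In siKEAP1/siCCNF against siCONTROL, 24 members (61.5%) rose and 1 (2.56%) fell, with 20.6% of all tested genes higher and 23.6% lower. The 3 comparisons share the siCONTROL libraries. The same shares of all tested genes stand beside the counts by role group given below.

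The changes were small. No member passed both the adjusted p and a 2-fold change against siCONTROL, whereas 11.5% of all tested genes did so in siKEAP1, 11.4% in siCCNF and 10.3% in siKEAP1/siCCNF. The median log2 fold change of the 39 members was -0.031 in siKEAP1, 0.29 in siCCNF and 0.39 in siKEAP1/siCCNF, beside -0.012, 0.013 and 0.014 over all tested genes. Taking the median over the members in each library, relative to the siCONTROL mean, siCONTROL ranged from -0.074 to 0.10, siKEAP1 from -0.054 to 0.045, siCCNF from 0.22 to 0.31 and siKEAP1/siCCNF from 0.30 to 0.38. The siCONTROL value of 0.10 is that of replicate 1, and without this library the siCCNF median was 0.36. By mean CPM, 20 members were highest in siKEAP1/siCCNF and 9 in siCCNF, while 16 were lowest in siCONTROL and 16 in siKEAP1. This order of groups was not counted over all tested genes.

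**Figure D2:**
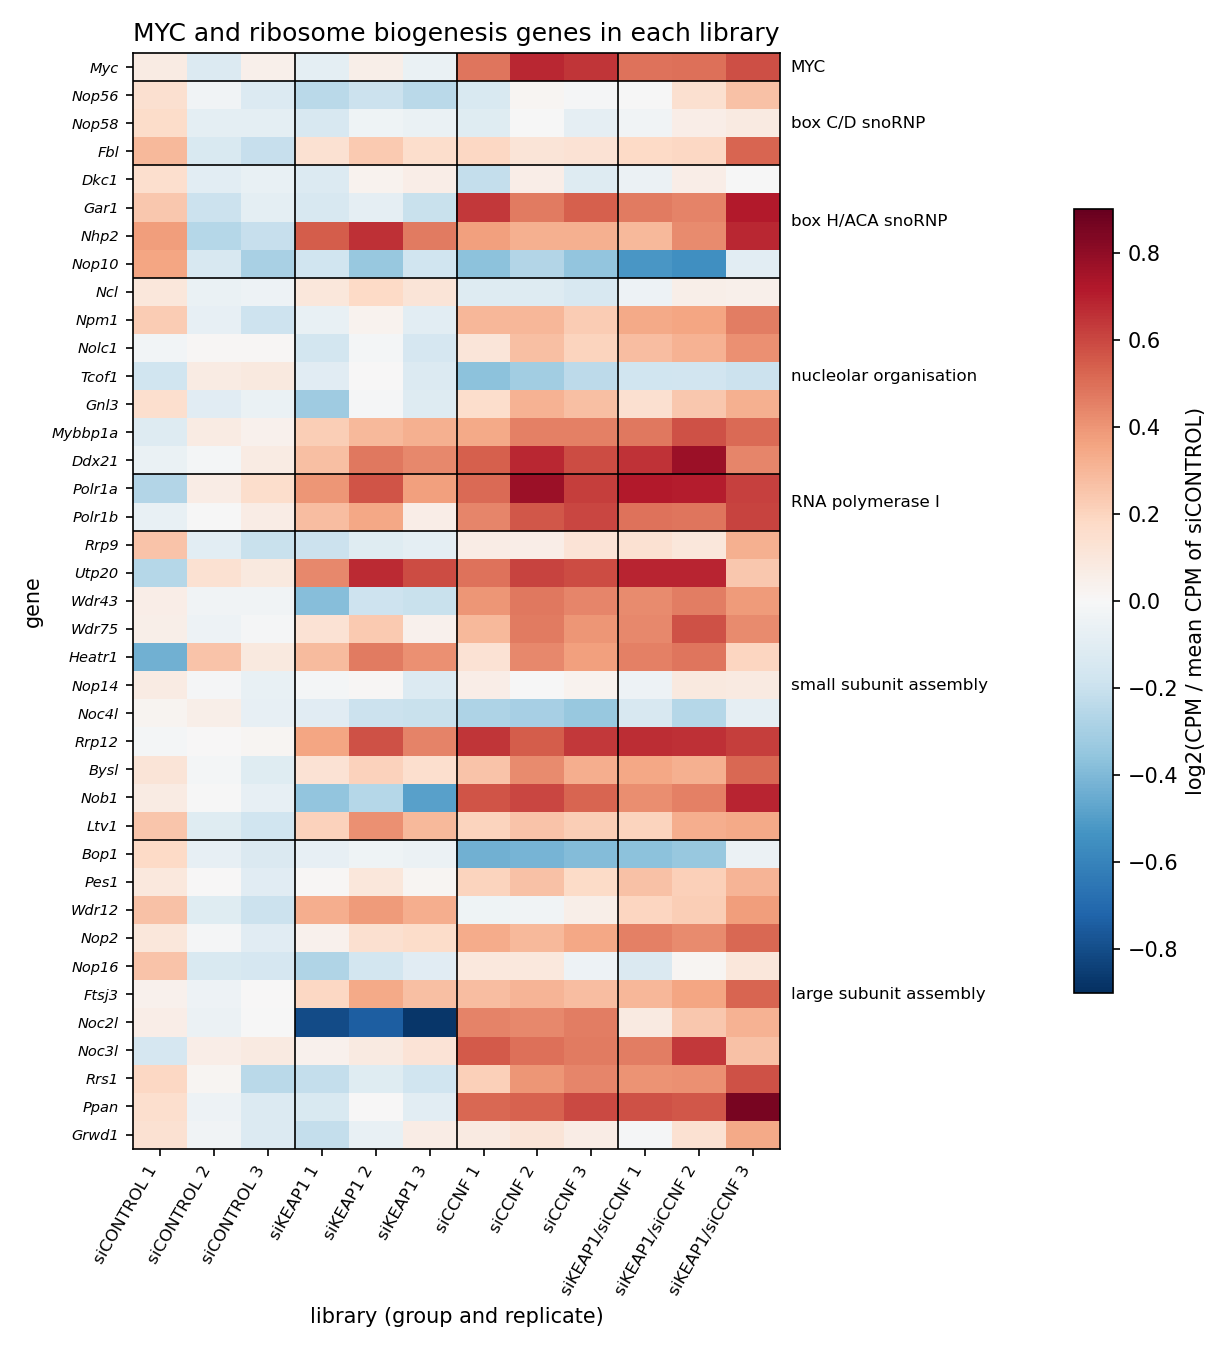
Each row is one of the 39 genes, ordered by role, and each column one of the 12 libraries, with colour giving log2 of CPM over the mean CPM of siCONTROL (red higher, blue lower). Most rows are red in the siCCNF and siKEAP1/siCCNF columns, Bop1, Tcof1, Noc4l and Nop10 are blue there, and Noc2l is dark blue in siKEAP1 alone.

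The summed muscle markers were lower in every depletion, siKEAP1 included. All 5 myoblast markers fell in each depletion against siCONTROL, and their summed level was 1104 to 1311 CPM in siCONTROL, 630 to 666 in siKEAP1, 527 to 533 in siCCNF and 503 to 584 in siKEAP1/siCCNF. The 12 markers of differentiating muscle, such as Myog, summed to 82.4 to 175 CPM in siCONTROL, 58.2 to 61.4 in siKEAP1, 30.6 to 39.3 in siCCNF and 19.3 to 20.6 in siKEAP1/siCCNF, the highest value being that of siCONTROL replicate 1. Of these, 9 were tested: 8 fell and 1 rose in siKEAP1, 8 fell in siCCNF and 9 fell in siKEAP1/siCCNF. The 1 that rose was Tnnt2, a cardiac-type troponin gene also expressed in immature muscle, at 31.7, 20.3 and 14.8 CPM in siCONTROL and 56.2, 55.1 and 53.1 in siKEAP1 (1.30 ± 0.19, adjusted p = 1.4e-04), where it made up most of the sum. Without Tnnt2, a split made after its values were seen, the sum was 67.4 to 144 CPM in siCONTROL, 5.04 to 5.91 in siKEAP1, 22.8 to 30.5 in siCCNF and at least 9.45 in siKEAP1/siCCNF, whose libraries all lay between those of siKEAP1 and siCCNF. Myog, for example, was at 0.232, 0.162 and 0.132 CPM in siKEAP1 and 10.1, 6.84 and 7.35 in siCCNF. The adipocyte markers Pparg and Fabp4 rose in siKEAP1, where the 4 adipocyte markers summed to 29.7 to 34.4 CPM against 6.68 to 11.6 CPM in the other groups. In bulk RNA, fewer cells of a state and less RNA per cell cannot be told apart, and the part of these markers in the changes of the 39 genes was not tested.

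**Figure D3:**
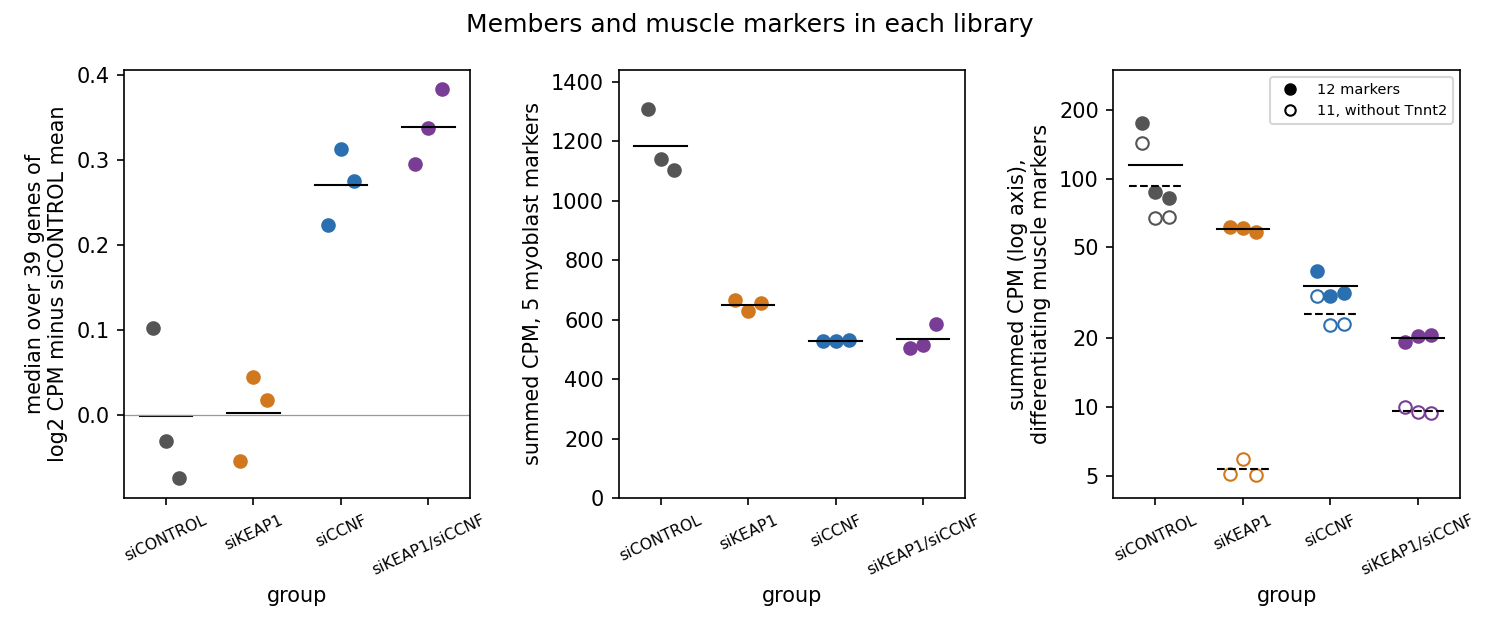
For each library (points, by group, with the group mean as a line), the median over the 39 genes of log2 CPM minus the siCONTROL mean, the summed CPM of 5 myoblast markers, and the summed CPM of markers of differentiating muscle on a log axis, with all 12 (filled, solid mean) and without Tnnt2 (open, dashed mean). The median of the 39 genes is 0.22 to 0.38 in the 6 libraries with CCNF depletion and -0.074 to 0.10 in the other 6, while the marker sums are highest in siCONTROL and, without Tnnt2, lowest in siKEAP1.

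The core proteins of box C/D snoRNPs, which guide methylation of ribosomal RNA, had few calls, with 1 of 3 lower in siKEAP1 and none called in siCCNF or siKEAP1/siCCNF. Nop56, the member of this group with the highest FPKM, was at 126, 111 and 105 CPM in siCONTROL, 96.3, 99.4 and 96.3 in siKEAP1, 103, 115 and 113 in siCCNF and 114, 126 and 136 in siKEAP1/siCCNF. The 3 siKEAP1 libraries were the lowest 3 of the 12. Nop56 fell in siKEAP1 (-0.22 ± 0.083, adjusted p = 0.046), and gave -0.045 ± 0.083 in siCCNF and 0.14 ± 0.083 in siKEAP1/siCCNF. The siKEAP1 call was lost under 13 of 23 alternatives, among them the fits without siCONTROL replicates 1 or 2, siKEAP1 replicates 1, 2 or 3 or siCCNF replicate 3 (adjusted p = 0.050 to 0.12). Nop58 gave -0.081 ± 0.075, -0.064 ± 0.074 and 0.038 ± 0.075 in siKEAP1, siCCNF and siKEAP1/siCCNF, with no call. Fbl, which encodes the methyltransferase fibrillarin, gave 0.18 ± 0.12, 0.14 ± 0.12 and 0.30 ± 0.12, also with no call, and its siCONTROL libraries spread from 59.6 to 84.0 CPM.

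The box H/ACA group, which carries out pseudouridylation, was split. Dkc1, the gene of the pseudouridine synthase dyskerin, gave -0.0090 ± 0.090 in siKEAP1, -0.088 ± 0.089 in siCCNF and 0.0018 ± 0.089 in siKEAP1/siCCNF, none past the test. Gar1, a partner of dyskerin, was at 33.1, 24.4 and 26.3 CPM in siCONTROL, 25.2, 26.5 and 24.3 in siKEAP1, 43.5, 38.6 and 40.5 in siCCNF and 38.6, 38.1 and 45.8 in siKEAP1/siCCNF. All 6 Gar1 values with CCNF depletion were above the 6 without it, and Gar1 rose in siCCNF (0.55 ± 0.11, adjusted p = 0.0011) and siKEAP1/siCCNF (0.55 ± 0.11, adjusted p = 0.0013). Nhp2, another partner, rose in siKEAP1, from 53.2, 34.3 and 35.6 to 59.8, 64.6 and 56.6 CPM (0.55 ± 0.15, adjusted p = 0.0080), and in siKEAP1/siCCNF (0.47 ± 0.15, adjusted p = 0.018), and gave 0.33 ± 0.14, adjusted p = 0.075 in siCCNF. The siCONTROL replicate 1 value of Nhp2 lay apart from the other controls, and without this library Nhp2 passed the test in siCCNF as well (0.57, adjusted p = 3.9e-04). The siKEAP1/siCCNF call was lost without siCONTROL replicates 2 or 3 or siKEAP1/siCCNF replicate 3 (adjusted p = 0.071 to 0.082). Nop10 had the lowest values of the group, at -0.23 ± 0.16, -0.33 ± 0.16 and -0.38 ± 0.16, none of them called.

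Among the proteins that organise the nucleolus, 5 of 7 rose and 1 fell in siCCNF. Npm1 rose from 545, 441 and 407 CPM in siCONTROL to 571, 573 and 545 in siCCNF (0.28 ± 0.092, adjusted p = 0.024) and to 589, 594 and 639.7 in siKEAP1/siCCNF (0.39 ± 0.092, adjusted p = 0.0038), while siKEAP1 stood at 444, 476 and 434 CPM. The siCONTROL replicate 1 value reached the range of siCCNF, and the siCCNF call was lost without siCONTROL replicates 2 or 3 or siCCNF replicates 1 or 2 (adjusted p = 0.059 to 0.10). Ncl gave 0.13 ± 0.061, -0.13 ± 0.061 and 0.020 ± 0.061 with no call, and passed in siKEAP1 without siCONTROL replicate 1 (0.18, adjusted p = 0.017).

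The RNA helicase gene Ddx21 had the largest rise of the nucleolar group. It was at 141, 145 and 155 CPM in siCONTROL, 177, 204 and 198 in siKEAP1, 214, 236 and 221 in siCCNF and 231, 250.4 and 199 in siKEAP1/siCCNF, so that no depleted library overlapped the controls. Its log2 fold changes were 0.40 ± 0.086, adjusted p = 0.0024 in siKEAP1, 0.60 ± 0.086, adjusted p = 7.6e-05 in siCCNF and 0.63 ± 0.086, adjusted p = 6.4e-05 in siKEAP1/siCCNF. Mybbp1a, for a nucleolar MYB-binding protein, rose in all 3 depletions (0.28 ± 0.066, 0.42 ± 0.066 and 0.52 ± 0.066). Nolc1, a chaperone of snoRNPs, rose in siCCNF (0.19 ± 0.067) and siKEAP1/siCCNF (0.33 ± 0.067), and Gnl3, which encodes the GTPase nucleostemin, rose in siCCNF (0.25 ± 0.093, adjusted p = 0.041) and gave 0.24 ± 0.093, adjusted p = 0.055 in siKEAP1/siCCNF. The Gnl3 call in siCCNF was lost without siCONTROL replicates 2 or 3, siKEAP1 replicate 3 or siCCNF replicates 2 or 3 (adjusted p = 0.058 to 0.13), and that of Nolc1 in siCCNF was lost without siCONTROL replicates 1, 2 or 3 or siCCNF replicates 2 or 3 (adjusted p = 0.050 to 0.10).

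Tcof1, whose product treacle supports ribosomal DNA transcription, went the other way. It was at 78.2, 93.2 and 94.1 CPM in siCONTROL and 68.5, 71.1 and 75.1 in siCCNF, without overlap, and fell there (-0.31 ± 0.076, adjusted p = 0.0048). In siKEAP1/siCCNF it was at 78.0, 78.5 and 77.2 CPM (-0.18 ± 0.076, adjusted p = 0.067), and in siKEAP1 at 82.4, 88.7 and 81.4 (-0.071 ± 0.076, adjusted p = 0.49).

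Polr1a and Polr1b, the genes of the largest subunits of RNA polymerase I, both rose on CCNF depletion. Polr1a was at 44.3, 55.6 and 59.3 CPM in siCONTROL, 69.9, 78.5 and 68.5 in siKEAP1, 75.5, 90.6 and 81.6 in siCCNF and 86.9, 86.6 and 81.1 in siKEAP1/siCCNF. It had the highest log2 fold change of the 39 genes in siCCNF (0.64 ± 0.10, adjusted p = 2.3e-04) and in siKEAP1/siCCNF (0.68 ± 0.10, adjusted p = 1.6e-04), and rose in siKEAP1 as well (0.45 ± 0.10, adjusted p = 0.0039). Polr1b was at 15.1, 15.7 and 16.5 CPM in siCONTROL, 19.1, 20.1 and 16.4 in siKEAP1, 21.4, 23.2 and 23.9 in siCCNF and 22.1, 22.0 and 24.0 in siKEAP1/siCCNF. It rose in siCCNF (0.54 ± 0.091, adjusted p = 3.2e-04) and siKEAP1/siCCNF (0.53 ± 0.091, adjusted p = 4.1e-04), and gave 0.24 ± 0.092, adjusted p = 0.057 in siKEAP1.

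Of the 11 genes for assembly of the small subunit, 6 rose and 1 fell in siCCNF, 8 rose and none fell in siKEAP1/siCCNF, and 4 rose and 2 fell in siKEAP1. Rrp12, an assembly and export factor, was at 14.9, 15.1 and 15.3 CPM in siCONTROL, 19.4, 22.5 and 20.6 in siKEAP1, 23.7, 22.0 and 23.5 in siCCNF and 23.9, 23.9 and 23.3 in siKEAP1/siCCNF. The siCONTROL values were tight and below all others, and Rrp12 rose in siKEAP1 (0.46 ± 0.078, adjusted p = 3.5e-04), siCCNF (0.61 ± 0.077, adjusted p = 2.5e-05) and siKEAP1/siCCNF (0.65 ± 0.077, adjusted p = 1.8e-05). Utp20, a large scaffold protein of the early precursor, was at 43.3, 57.0 and 54.9 CPM in siCONTROL, 69.6, 82.6 and 77.6 in siKEAP1, 72.4, 78.9 and 77.7 in siCCNF and 83.3, 83.1 and 61.3 in siKEAP1/siCCNF. It rose in the 3 depletions (0.57 ± 0.13, 0.56 ± 0.13 and 0.56 ± 0.13), and its lowest depleted value was that of siKEAP1/siCCNF replicate 3.

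Nob1 and Wdr43 moved in opposite directions in the single depletions. Nob1, the gene of the endonuclease that trims the small-subunit RNA, was at 31.8, 30.2 and 28.7 CPM in siCONTROL, 23.6, 25.3 and 21.6 in siKEAP1, 44.7, 45.9 and 43.4 in siCCNF and 40.4, 41.3 and 48.7 in siKEAP1/siCCNF. The groups without and with CCNF depletion did not overlap, and siKEAP1 lay below siCONTROL. Nob1 fell in siKEAP1 (-0.36 ± 0.088, adjusted p = 0.0048) and rose in siCCNF (0.56 ± 0.086, adjusted p = 1.4e-04) and siKEAP1/siCCNF (0.52 ± 0.086, adjusted p = 2.8e-04). Wdr43, a component of the early small-subunit precursor and the member of this role with the highest FPKM, went from 73.3, 68.9 and 68.8 CPM in siCONTROL to 54.0, 61.8 and 61.3 in siKEAP1 (-0.25 ± 0.066, adjusted p = 0.0077) and 92.7, 97.9 and 95.4 in siCCNF (0.44 ± 0.065, adjusted p = 1.1e-04). In siKEAP1/siCCNF it was at 94.4, 96.6 and 91.7 CPM (0.42 ± 0.066, adjusted p = 1.7e-04).

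Wdr75 and Bysl rose in siCCNF (0.39 ± 0.074 and 0.34 ± 0.079) and siKEAP1/siCCNF (0.48 ± 0.075 and 0.40 ± 0.079). Ltv1 rose in siKEAP1 (0.31 ± 0.10, adjusted p = 0.030) and siKEAP1/siCCNF (0.29 ± 0.10, adjusted p = 0.035), and gave 0.23 ± 0.10 in siCCNF. Its call in siKEAP1 was lost without siCONTROL replicates 2 or 3 or siKEAP1 replicates 2 or 3 (adjusted p = 0.068 to 0.13), and that in siKEAP1/siCCNF without siCONTROL replicates 2 or 3, siKEAP1 replicate 3, siCCNF replicate 3 or siKEAP1/siCCNF replicates 2 or 3 (adjusted p = 0.050 to 0.15). Heatr1 was at 28.4, 45.8 and 40.7 CPM in siCONTROL, and its calls in siKEAP1 (0.39 ± 0.15, adjusted p = 0.049) and siKEAP1/siCCNF (0.39 ± 0.15, adjusted p = 0.049) were both just under the threshold, while siCCNF gave 0.32 ± 0.15. The former was lost without siCONTROL replicates 1 or 3, siKEAP1 replicates 1, 2 or 3, siCCNF replicates 1, 2 or 3 or siKEAP1/siCCNF replicates 1 or 2 (adjusted p = 0.057 to 0.16), and the latter without siCONTROL replicates 1 or 3, siKEAP1 replicates 1, 2 or 3, siCCNF replicates 1, 2 or 3 or siKEAP1/siCCNF replicates 1 or 2 (adjusted p = 0.055 to 0.16). Noc4l fell in siCCNF, from 30.8, 31.4 and 28.8 to 25.1, 24.6 and 23.9 CPM (-0.31 ± 0.072, adjusted p = 0.0036), without overlap. Nop14 gave -0.043 ± 0.069, 0.029 ± 0.069 and 0.041 ± 0.069 in siKEAP1, siCCNF and siKEAP1/siCCNF and Rrp9 gave -0.13 ± 0.11, 0.082 ± 0.11 and 0.19 ± 0.11, with no call.

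Among the 11 genes for assembly of the large subunit, 7 rose and 1 fell in siCCNF and in siKEAP1/siCCNF, and 2 rose and 1 fell in siKEAP1. The largest log2 fold change of any member against siCONTROL was that of Noc2l in siKEAP1. Noc2l, which encodes a nucleolar assembly factor also known as an inhibitor of histone acetyltransferases, was at 67.1, 62.1 and 64.3 CPM in siCONTROL, 37.0, 38.6 and 35.1 in siKEAP1, 87.8, 87.1 and 88.9 in siCCNF and 68.1, 76.2 and 80.0 in siKEAP1/siCCNF. The siKEAP1 values were far below all others, and the siCCNF values above all others. Noc2l fell in siKEAP1 (-0.81 ± 0.072, adjusted p = 1.4e-06) and rose in siCCNF (0.45 ± 0.070, adjusted p = 1.6e-04). In siKEAP1/siCCNF it lay between siCONTROL and siCCNF (0.21 ± 0.070, adjusted p = 0.025), a call lost without siCONTROL replicates 2 or 3 or siKEAP1/siCCNF replicates 2 or 3 (adjusted p = 0.066 to 0.095).

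The 3 genes of the PeBoW complex, which is needed for processing of the large-subunit RNA, differed in direction. Bop1, the member of this role with the highest FPKM, fell in siCCNF, from 120.0, 101 and 97.1 CPM to 78.6, 79.4 and 80.8 (-0.41 ± 0.092, adjusted p = 0.0024), and in siKEAP1/siCCNF, at 81.9, 83.8 and 102 CPM (-0.25 ± 0.092, adjusted p = 0.043). The latter call was lost under 10 of 23 alternatives, among them the fits without siCONTROL replicate 1, siKEAP1 replicates 2 or 3, siCCNF replicates 2 or 3 or siKEAP1/siCCNF replicates 1 or 2 (adjusted p = 0.050 to 0.16). Pes1 rose in siCCNF (0.21 ± 0.064) and siKEAP1/siCCNF (0.26 ± 0.064), the former call being lost without siCONTROL replicate 3 or siCCNF replicate 2 (adjusted p = 0.055 to 0.071). Wdr12 rose in siKEAP1, from 30.0, 23.1 and 21.8 to 31.3, 32.5 and 31.3 CPM (0.34 ± 0.11, adjusted p = 0.020), and gave -0.0065 ± 0.11 in siCCNF. The Wdr12 call was lost without siCONTROL replicates 2 or 3 or siKEAP1 replicate 2 (adjusted p = 0.065 to 0.089) and with the gene length trend removed (adjusted p = 0.41).

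Ppan, for a conserved factor of large-subunit maturation, was at 38.8, 33.9 and 32.0 CPM in siCONTROL, 31.8, 35.0 and 32.6 in siKEAP1, 49.9, 50.5 and 52.5 in siCCNF and 51.8, 51.4 and 62.9 in siKEAP1/siCCNF. It had the highest log2 fold change of the large-subunit group in siCCNF (0.55 ± 0.093, adjusted p = 3.3e-04) and siKEAP1/siCCNF (0.66 ± 0.093, adjusted p = 7.6e-05), and -0.075 ± 0.095, adjusted p = 0.57 in siKEAP1. Noc3l, Rrs1 and the RNA methyltransferase gene Nop2 also rose in siCCNF (0.51 ± 0.097, 0.35 ± 0.10 and 0.32 ± 0.067) and in siKEAP1/siCCNF (0.46 ± 0.098, 0.47 ± 0.10 and 0.47 ± 0.067), with no call in siKEAP1. Ftsj3, another gene of this group, rose in all 3 depletions (0.27 ± 0.070, 0.29 ± 0.070 and 0.39 ± 0.070). Nop16 gave -0.18 ± 0.11, 0.046 ± 0.11 and -0.0025 ± 0.11 and Grwd1 -0.066 ± 0.11, 0.084 ± 0.10 and 0.16 ± 0.10, with no call.

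**Figure D4:**
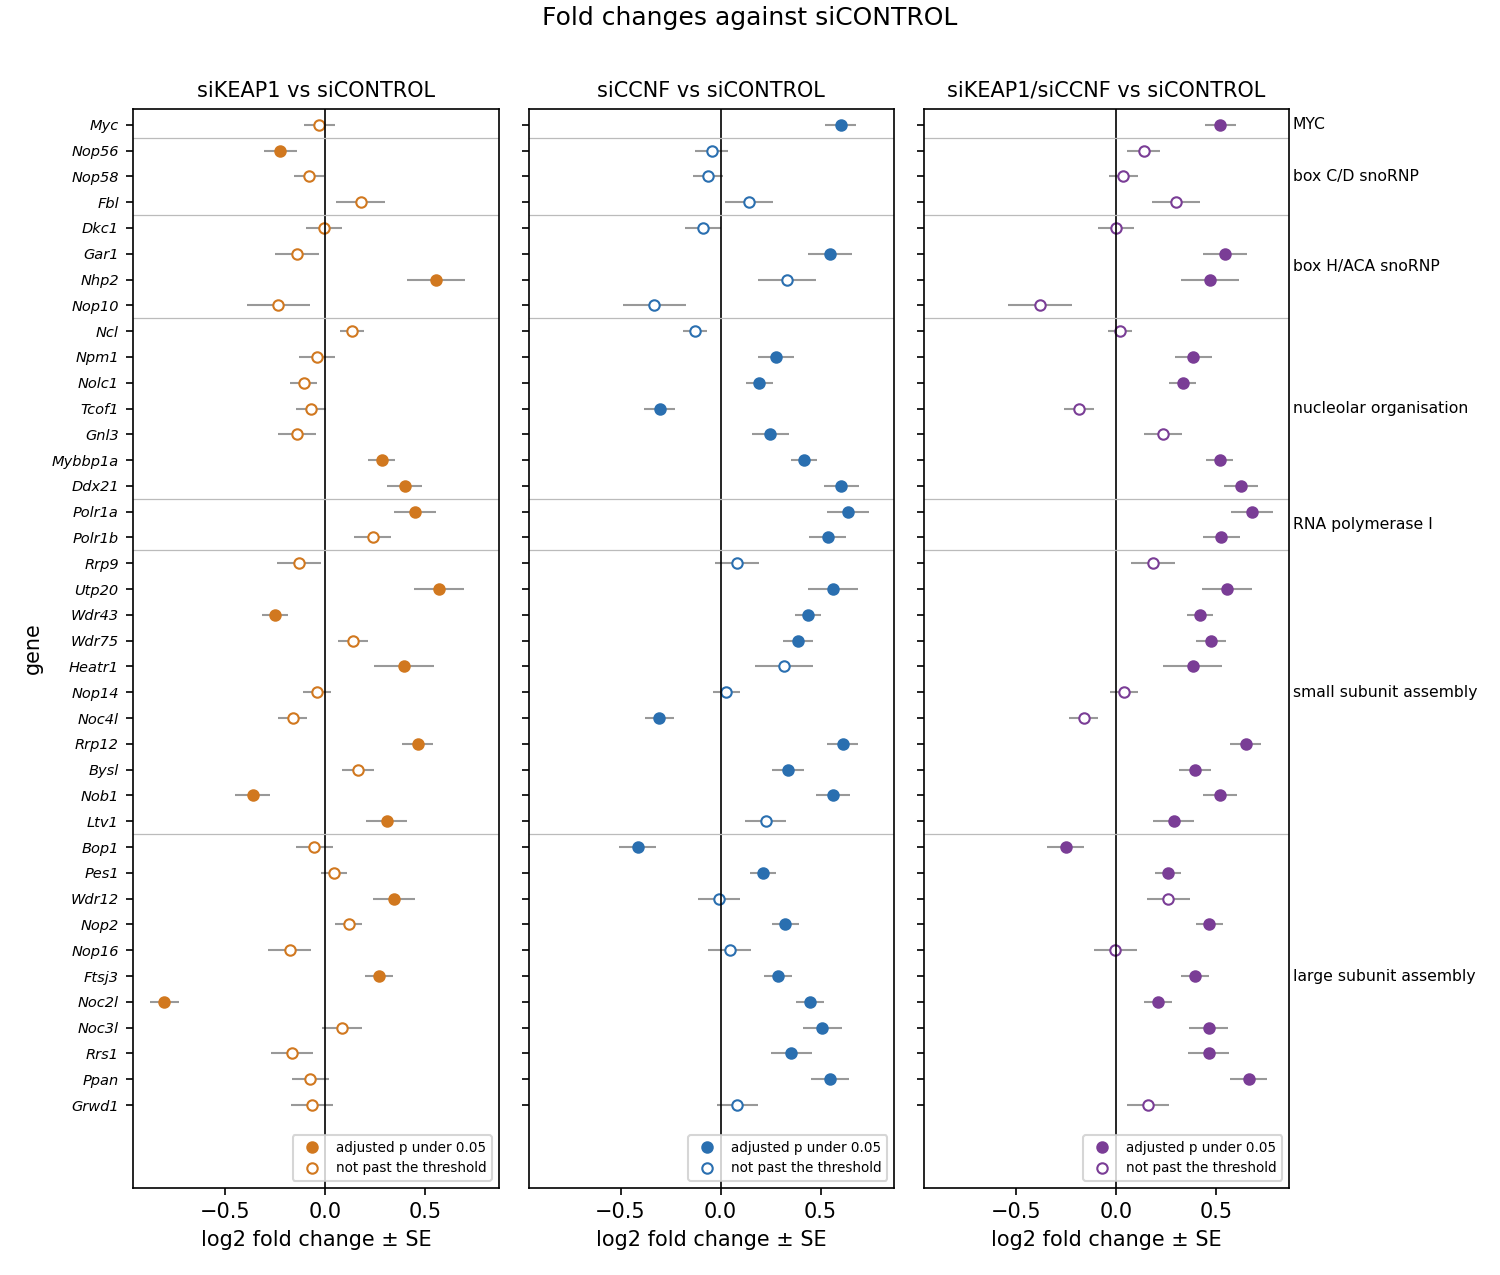
Log2 fold change ± SE (horizontal axis) of each of the 39 genes, ordered by role (vertical axis), for siKEAP1, siCCNF and siKEAP1/siCCNF against siCONTROL, with filled points where the adjusted p is under 0.05. Filled points lie on both sides of 0 in siKEAP1 (10 higher and 4 lower) and mostly to the right in siCCNF (22 and 3) and siKEAP1/siCCNF (24 and 1).

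To ask what CCNF depletion does when KEAP1 is already low, siKEAP1/siCCNF was compared with siKEAP1. Here 20 of 39 members rose and none fell, with 24.1% of all tested genes higher and 26.9% lower, and the median log2 fold change was 0.23 beside 0.0013 for all genes. For the lower direction, edgeR gave 0 members at an unadjusted p under 0.05 and DESeq2 0 calls, but 4 members (Nhp2, Nop10, Ncl and Bop1) fell when the 2 libraries that follow gene length were left out. In that fit 29.9% of all tested genes were lower. Noc2l (1.02 ± 0.071, adjusted p = 1.2e-07) was the only member past 2-fold, beside 14.5% of all tested genes. Nob1 (0.89 ± 0.087), Ppan (0.74 ± 0.093), Gar1 (0.69 ± 0.11), Wdr43 (0.67 ± 0.066) and Rrs1 (0.63 ± 0.10) came next. Nop56 (0.36 ± 0.083) and Rrp9 (0.32 ± 0.11) rose in this comparison, and the Rrp9 call was lost without siKEAP1 replicates 1 or 2 or siKEAP1/siCCNF replicate 3 (adjusted p = 0.054 to 0.084). The calls of Bysl (0.23 ± 0.079), Ddx21 (0.23 ± 0.086) and Polr1b (0.29 ± 0.090) were lost, respectively, without siKEAP1 replicates 1 or 3 or siKEAP1/siCCNF replicate 3 (adjusted p = 0.066 to 0.076), without siKEAP1 replicates 1 or 3, siCCNF replicate 3 or siKEAP1/siCCNF replicates 1 or 2 (adjusted p = 0.051 to 0.17) and without siKEAP1 replicate 3 (adjusted p = 0.080).

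This comparison shares no library with siCCNF against siCONTROL, so the calls of both can be set side by side. Of the 22 members that rose in siCCNF against siCONTROL, 18 (81.8%) also rose in siKEAP1/siCCNF against siKEAP1, which is 90.0% of the 20 that rose there. Over all tested genes, 61.9% of the 3396 that rose in the former also rose in the latter, which is 57.6% of the 3651 that rose there. Of the other members, Polr1a, Utp20, Rrp12 and Ftsj3 passed in the former alone, and Nop56 and Rrp9 in the latter alone, which does not show that they differ. The interaction was called for Utp20, Rrp12 and Nop56, and gave -0.41 ± 0.15, adjusted p = 0.069 for Polr1a, -0.16 ± 0.099, adjusted p = 0.28 for Ftsj3 and 0.23 ± 0.15, adjusted p = 0.32 for Rrp9. Against siKEAP1, Polr1a gave 0.23 ± 0.10, adjusted p = 0.077 and Rrp12 0.19 ± 0.075, adjusted p = 0.052, and both passed without siCONTROL replicate 1 (adjusted p = 0.017 and 0.042). Rrp9 passed in siCCNF against siCONTROL without that library (0.23, adjusted p = 0.041). The 3 that fell in siCCNF (Bop1, Tcof1 and Noc4l) gave -0.19 ± 0.092, -0.11 ± 0.076 and 0.0046 ± 0.073 in KEAP1-depleted cells, with no call, and Bop1 passed without siCONTROL replicate 1 (-0.19, adjusted p = 0.038) or siKEAP1/siCCNF replicate 3 (-0.29, adjusted p = 0.0093).

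In the reverse comparison, KEAP1 depletion in cells already depleted of CCNF, no member passed the test by edgeR in either direction, with 3.00% of all tested genes higher and 2.19% lower. At an unadjusted p under 0.05, 3 members were higher and 1 lower, and DESeq2 called 1 lower. The median was 0.075 beside 0.0032 for all genes. The groups did not overlap in 9 members with siKEAP1/siCCNF higher and in 1 with it lower, against 13.4% and 12.4% of all tested genes. The 1 lower was Noc2l (-0.23 ± 0.069, adjusted p = 0.074), which was also the DESeq2 call (adjusted p = 0.030) and passed the edgeR test without siCONTROL replicate 1 (0.032) or siKEAP1/siCCNF replicate 3 (0.038). The 3 higher ones were Wdr12 (0.27 ± 0.10, adjusted p = 0.18), Nop56 (0.18 ± 0.083) and Ncl (0.15 ± 0.061), and Wdr12 passed the test without siCONTROL replicate 1 (0.029).

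**Figure D5:**
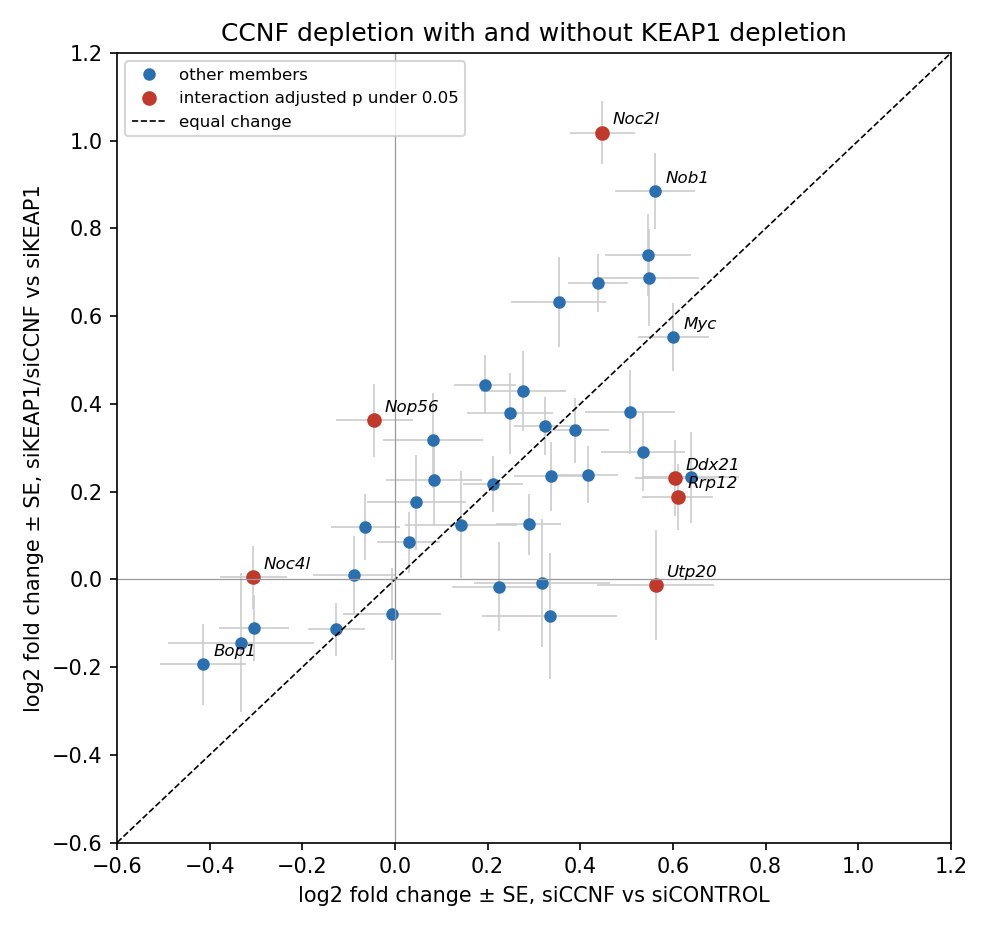
Log2 fold change ± SE on CCNF depletion for each of the 39 genes in control cells (horizontal axis) and in KEAP1-depleted cells (vertical axis), with the dashed line marking equal change. Red points are the 6 members with an interaction adjusted p under 0.05: Noc2l, Nop56 and Noc4l above the line, and Utp20, Rrp12 and Ddx21 below it.

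Whether the effect of one siRNA depends on the other was tested by the interaction, the siKEAP1 effect in CCNF-depleted cells minus that in control cells. It was positive for 3 members and negative for 3, with 10.6% of all tested genes positive and 10.5% negative, and the median was 0.055. Noc2l had the highest value (0.57 ± 0.10, adjusted p = 0.0013), followed by Nop56 (0.41 ± 0.12, adjusted p = 0.025) and Noc4l (0.31 ± 0.10, adjusted p = 0.048). Utp20 had the lowest (-0.58 ± 0.18, adjusted p = 0.035), with Rrp12 (-0.42 ± 0.11, adjusted p = 0.014) and Ddx21 (-0.37 ± 0.12, adjusted p = 0.045) also negative. For Noc2l, the siKEAP1 effect was -0.81 in control cells and -0.23 in CCNF-depleted cells. For Rrp12, it was 0.46 and 0.039, and for Utp20 0.57 and -0.0070. Of these 6 calls only that of Noc2l held under all 22 alternatives at the same threshold. That of Rrp12 was lost under 1 of them (adjusted p = 0.076 with no filter on low counts), and that of Nop56 was lost without siKEAP1 replicates 1 or 3 or siCCNF replicate 1 (adjusted p = 0.055 to 0.061). The Utp20 call was lost without siCONTROL replicate 1, siKEAP1 replicates 2 or 3, siCCNF replicates 1, 2 or 3 or siKEAP1/siCCNF replicate 3 (adjusted p = 0.052 to 0.095), the Ddx21 call without siCONTROL replicates 1 or 2, siKEAP1 replicates 2 or 3, siCCNF replicates 1, 2 or 3 or siKEAP1/siCCNF replicates 1 or 3 (adjusted p = 0.060 to 0.12), and the Noc4l call without siCONTROL replicates 1 or 2, siKEAP1 replicates 1, 2 or 3, siCCNF replicates 1, 2 or 3 or siKEAP1/siCCNF replicates 1 or 3 (adjusted p = 0.054 to 0.11). Without siCONTROL replicate 1 the interaction of Nhp2 passed the test, with a value of -0.65 (adjusted p = 0.0031).

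Gene length, as given in the table, moved with part of the siKEAP1 result. The 19 longer members (4004 to 11955 bases) had a median log2 fold change of 0.18 in siKEAP1, with 8 higher and 1 lower, whereas the 20 shorter members (1109 to 3977 bases) had -0.061, with 2 higher and 3 lower. In siCCNF the medians of the longer and the shorter members were 0.29 and 0.30, with 11 higher in each. With a length trend removed from each library, 9 members rose and 8 fell in siKEAP1, and 25 rose and 4 fell in siCCNF. This setting also moved all tested genes in siKEAP1, to a median of -0.089 with 18.8% higher and 28.6% lower, and less so in siCCNF, to 0.025 with 25.9% higher and 26.1% lower. Leaving out the 2 libraries that follow length gave 13 and 5 in siKEAP1 and 27 and 3 in siCCNF. Of all tested genes, 23.6% were then higher and 25.04% lower in siKEAP1, and 26.7% and 27.9% in siCCNF. These shares also exceeded those of the main fit.

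The control library that follows length, siCONTROL replicate 1, decided several calls. Without it, Fbl passed the test in siKEAP1 (0.34, adjusted p = 0.011), siCCNF (0.31, adjusted p = 0.013) and siKEAP1/siCCNF (0.46, adjusted p = 0.0012), Ltv1 in siCCNF (0.37, adjusted p = 0.0015), and Wdr12 (0.41, adjusted p = 7.7e-04), Rrp9 (0.33, adjusted p = 0.0074) and Gnl3 (0.31, adjusted p = 0.013) in siKEAP1/siCCNF. In the lower direction, Tcof1 passed in siKEAP1/siCCNF without it (-0.27, adjusted p = 0.0027). Nop56 in siKEAP1/siCCNF (0.21, adjusted p = 0.040) and Bysl in siKEAP1 (0.21, adjusted p = 0.045) also passed without it. Without siKEAP1/siCCNF replicate 3, Noc4l passed in siKEAP1/siCCNF (-0.20, adjusted p = 0.048). Nop10, the lowest member in siKEAP1/siCCNF, passed there without siCONTROL replicate 3 (-0.51, adjusted p = 0.021) or siKEAP1/siCCNF replicate 3 (-0.54, adjusted p = 0.013).

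Other genes of the pathway were also counted. Of 85 other ribosome assembly genes, 35 (41.2%) rose and 6 (7.06%) fell in siCCNF (median 0.16), beside 22.5% and 25.5% of all tested genes. In siKEAP1/siCCNF, 39 (45.9%) rose and 4 (4.71%) fell (0.18), beside 20.6% and 23.6%. In siKEAP1, 16 (18.8%) rose and 13 (15.3%) fell (0.013), beside 20.4% and 20.2%, so neither share there exceeded that of all genes. The extremes were Utp3 (-0.84 ± 0.091) and Wdr36 (0.65 ± 0.063) in siKEAP1, and Znhit3 (-0.75 ± 0.11) and the giant assembly ATPase gene Mdn1 (1.36 ± 0.25) in siCCNF. In siKEAP1/siCCNF they were Nol11 (-0.55 ± 0.084) and again Mdn1 (1.12 ± 0.25). In siKEAP1/siCCNF against siKEAP1, 38 of the 85 (44.7%) rose and 7 (8.24%) fell, beside 24.1% and 26.9% of all tested genes. Against siCCNF none did by edgeR (3 higher and 2 lower at an unadjusted p under 0.05), beside 3.00% and 2.19% of all tested genes.

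Of 13 further genes of the RNA polymerase I machinery, 6 rose and 2 fell in siCCNF, 7 rose and 2 fell in siKEAP1/siCCNF, and 1 rose and 2 fell in siKEAP1. In this order the rises were 46.2%, 53.8% and 7.69% of the 13, beside 22.5%, 20.6% and 20.4% of all tested genes. The falls were 15.4% in each, beside 25.5%, 23.6% and 20.2%. Polr1c, a subunit shared with RNA polymerase III, was highest in siCCNF (0.63 ± 0.12) and siKEAP1/siCCNF (0.76 ± 0.12). Taf1b, a subunit of the promoter selectivity factor, was lowest in both (-0.68 ± 0.14 and -0.48 ± 0.14), while the other 3 such subunits of the list, Taf1a, Taf1c and Taf1d, rose (0.42 ± 0.11, 0.51 ± 0.12 and 0.59 ± 0.087 in siCCNF). In siKEAP1 the extremes were Polr1d (-0.42 ± 0.14) and Polr1f (0.28 ± 0.080).

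Among 12 genes of the MYC network, 10 were tested, and Mycn and Mlxipl were at or near 0. Mycl, a relative of Myc, was at 51.6, 27.2 and 24.6 CPM in siCONTROL, 3.30, 3.65 and 3.25 in siKEAP1, 3.14, 3.42 and 3.33 in siCCNF and 1.87, 1.91 and 2.72 in siKEAP1/siCCNF. All depleted libraries were far below the controls, among which replicate 1 was highest as it was for the muscle markers, and Mycl fell by 3.34, 3.39 and 4.01 on the log2 scale. Max, the partner of MYC, fell in siKEAP1 (-0.21 ± 0.074) with no call in siCCNF. The MYC antagonist gene Mxd3 fell in all 3 depletions (-1.09, -1.24 and -0.95), and Mxi1, another antagonist, fell in siCCNF and siKEAP1/siCCNF (-0.58 and -0.51). The antagonists did not move together. Mnt, also an antagonist, rose in siKEAP1 (0.40 ± 0.084), and the antagonists Mxd1 and Mxd4 had no call in any of the 3 depletions. Mlx rose in all 3 depletions (0.22, 0.56 and 0.58).

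Among known MYC targets outside ribosome biogenesis, more fell than rose in siCCNF. Of 28 such genes, 3 (10.7%) rose and 11 (39.3%) fell in siCCNF (median -0.14), beside 22.5% and 25.5% of all tested genes. In siKEAP1/siCCNF, 5 (17.9%) rose and 8 (28.6%) fell (-0.051), beside 20.6% and 23.6%. In siKEAP1, 3 (10.7%) rose and 5 (17.9%) fell (0.0017), beside 20.4% and 20.2%. The cell-cycle kinase gene Cdk4 was lowest in siCCNF (-1.59 ± 0.089) and siKEAP1/siCCNF (-1.34 ± 0.088), and the mitochondrial chaperone gene Hspe1 was highest in both (0.63 ± 0.15 and 0.78 ± 0.15). In siKEAP1 the CTP synthase gene Ctps was lowest (-0.82 ± 0.089) and Odc1, for the first enzyme of polyamine synthesis, highest (0.55 ± 0.078). The targets were listed from general knowledge, and binding by MYC in these cells was not measured.

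The members with a promoter window were split by CACGTG, as a description without a test. In siCCNF, 5 of the 7 genes with the E-box rose and none fell (median 0.32), and of the 25 genes with a window but no E-box 13 rose and 1 fell (0.29). In siKEAP1 the 7 held 3 that rose, 1 that fell and a median of 0.12, and the 25 held 6, 3 and -0.043. Of all tested genes, 22.5% rose and 25.5% fell in siCCNF, and 20.4% and 20.2% in siKEAP1. Among the 7, Utp20 had the largest change in siCCNF and Wdr43 the only fall in siKEAP1, and their E-boxes were centred 40 and 20 bases after the start site.

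Some members share reads or territory with other genes. In the table, 9 of the 39 (Nop56, Dkc1, Nhp2, Gnl3, Rrp9, Heatr1, Bysl, Bop1 and Wdr12) overlap a gene on the opposite strand that holds over 5% of their own count, and whether counting used strand is not given in the sources used here, so these members are less certain. Of the genes that overlap Bop1, Scx was at 84.5 ± 17.2, 52.1 ± 4.46 and 50.5 ± 3.08 CPM (mean ± SD, n = 3) in siCONTROL, siCCNF and siKEAP1/siCCNF and Mroh1 at 39.3 ± 1.79, 52.3 ± 6.95 and 48.2 ± 1.61. Lgals8, which overlaps Heatr1, was at 82.0 ± 4.55 CPM in siCONTROL and 142 ± 5.69 in siKEAP1. Rmnd5b, which overlaps Nhp2, was at 40.7 ± 5.45 CPM in siCONTROL and 51.9 ± 2.40 in siKEAP1. Idh3b, which overlaps Nop56, was at 121 ± 15.7 and 110 ± 3.86 CPM in the same groups. In the other direction, Pbrm1, which overlaps Gnl3, was at 198 ± 37.1 CPM in siCONTROL and 107 ± 4.06 in siCCNF, where Gnl3 rose. The part of these neighbours in the changes was not tested. Pseudogenes named as such in the table by description or symbol were found for Nop56, Fbl, Nop10 and Npm1, at 0 or 1 count in every library. Pseudogenes under other names were not searched for.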

How the data were processed

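PolyA RNA of 12 C2C12 libraries was sequenced, and the authors deposited 1 table with read counts and FPKM per gene. The submitters' processing notes name HISAT2 and GRCm39, although the coordinates in the table match GRCm38 for 37 of the 39 members, so GRCm38 coordinates were used. The counting tool, its strand setting and the treatment of reads that match several genes are not given in the sources used here. Processing by gene can move reads between overlapping genes, and FPKM depends on the length in the table.

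From the deposited counts, genes were filtered (filterByExpr), scaled by TMM and tested by edgeR's quasi-likelihood test (edgeR 4.0.16, R 4.3.3) with 4 group means fitted together and Benjamini-Hochberg adjustment over 15122 of 54532 genes. CPM values use TMM-scaled totals of 18442205 to 37286955 counts (18464209 to 37743198 before scaling). FPKM, as deposited, was used for levels between genes and in limma 3.58.1 on log2(FPKM + 1) and log2(FPKM + 0.1), for genes of a mean FPKM of at least 0.5. DESeq2 1.42.0, other filters and scalings, a replicate block, a gene length correction and leaving out libraries were alternatives. The fits without the 2 length-following libraries that also remove the length trend were added after seeing the data. The edgeR steps were tested on simulated data.

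All 39 members were accounted for. CPM by library, in some or all groups, went to Myc, to the member of each role with the highest FPKM and to every member past 2-fold or against the majority. It also went to most members with the lowest or the highest log2 fold change of their role, but not to Nop58, Fbl, Nop10 and Gnl3. Of other lists the extremes were named. The members and lists were chosen with earlier results of these data known.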

Additional observations from a re-analysis of the deposited data

Results flagged for a closer look

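For 6 members the siKEAP1 effect differed between cells with and without CCNF depletion by the interaction test (edgeR, adjusted p under 0.05). These were 3 positive (7.69%) and 3 negative (7.69%), fewer than the 10.6% and 10.5% of all tested genes. The difference of the log2 fold changes was 0.57 for Noc2l (67.1, 62.1 and 64.3 CPM in siCONTROL, 37.0, 38.6 and 35.1 in siKEAP1, 87.8, 87.1 and 88.9 in siCCNF and 68.1, 76.2 and 80.0 in siKEAP1/siCCNF), the only one of the 6 whose call held under every alternative tried other than a 2-fold threshold. It was 0.41 for Nop56 and 0.31 for Noc4l, in which siKEAP1/siCCNF lay above the sum of the single effects. It was -0.58 for Utp20, -0.42 for Rrp12 and -0.37 for Ddx21, which rose in each single depletion and gave -0.0070 ± 0.12, 0.039 ± 0.074 and 0.023 ± 0.086 when KEAP1 depletion was added to CCNF depletion. With 3 libraries in each group, no library was left out of the main fit as an outlier. The 2 libraries that follow gene length were left out in alternative fits only.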

How the results depend on the processing

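The number of members that rose in siCCNF and siKEAP1/siCCNF against siCONTROL, and in siKEAP1/siCCNF against siKEAP1, stayed within 1.5 times the reported count under every alternative except a 2-fold threshold, which left 0 higher and 0 lower against siCONTROL and in the interaction, and 1 higher against siKEAP1. With the gene length trend removed, 8 members fell in siKEAP1 (median -0.098) and 2 in siKEAP1/siCCNF, the median against siKEAP1 was 0.33, 1 member fell against siCCNF, and the interaction had 7 positive calls and a median of 0.15. This setting moved the median of all tested genes to -0.089 in siKEAP1, 0.086 against siKEAP1 and 0.080 in the interaction, where 16.8% of genes were positive and 10.6% negative. Without the 2 libraries that follow gene length, the siCCNF median was 0.36, 3 members fell in siKEAP1/siCCNF against siCONTROL, 4 against siKEAP1 and 1 against siCCNF with 1 higher, and the interaction had 5 positive and 8 negative calls and a median of -0.050. Calls over all tested genes also increased in this setting, to 16.4% positive and 14.5% negative in the interaction. Against siCCNF they increased to 7.31% higher and 6.75% lower. With both steps, 7 fell in siKEAP1, the siCCNF median was 0.40, 3 fell in siKEAP1/siCCNF against siCONTROL, 3 against siKEAP1 (median 0.31) and 1 against siCCNF, and the interaction had 6 positive and 9 negative calls. Of all tested genes, 18.8% were then positive and 12.8% negative in the interaction, and 29.9% fell in siKEAP1. In that fit Wdr12 in siCCNF (0.23) and Utp20 in siKEAP1/siCCNF against siKEAP1 (0.18) changed sign, neither being called before. The count of members lower in siKEAP1/siCCNF was 2 with no filter, and 0 with at least 10 counts in every library or with only the groups compared. DESeq2 called 1 member lower in siKEAP1/siCCNF against siCCNF. The cause of these changes was not tested. The wider E-box set was found for 62.5% of the members with a window.

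Leaving out 1 library at a time gave 0 to 3 members lower in siKEAP1/siCCNF against siCONTROL, the highest without siKEAP1/siCCNF replicate 3, and 0 to 1 lower against siKEAP1. It gave 0 to 1 lower and 0 to 1 higher against siCCNF, each 1 arising without siCONTROL replicate 1 or, for the lower, also siKEAP1/siCCNF replicate 3. The siCCNF median was 0.24 to 0.36. The interaction had 1 to 4 positive calls, 1 of them left without siKEAP1 replicate 1, siKEAP1 replicate 3 or siCCNF replicate 1, and 1 to 4 negative calls, 1 of them left without siKEAP1 replicates 2 or 3, any siCCNF replicate or siKEAP1/siCCNF replicate 3. Its median was -0.026 to 0.10, the lowest without siCONTROL replicate 1.

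Replicate numbers are shared between groups, and whether they pair the libraries was not settled. The r exceeded 0.1 in 4 of 18 same-number pairs (range -0.27 to 0.20), and 6 of 12 libraries correlated best with their own number. Higher values were seen between different numbers, 0.39 for siCONTROL replicate 1 with siKEAP1/siCCNF replicate 3 and 0.22 for siCONTROL replicate 3 with siKEAP1/siCCNF replicate 2. Same-number pairs among siCONTROL, siKEAP1 and siCCNF were all positive (0.0035 to 0.20), and the negative ones all involved siKEAP1/siCCNF. These weak correlations cannot exclude a pairing. With a replicate block, 10, 22 and 23 members rose and 3, 3 and 0 fell in siKEAP1, siCCNF and siKEAP1/siCCNF against siCONTROL. In siKEAP1/siCCNF against siKEAP1, 20 rose and 0 fell, and the interaction had 2 positive and 3 negative calls. Of all tested genes, 19.98% were then higher and 19.4% lower in siKEAP1, 22.03% and 24.8% in siCCNF, and 20.04% and 23% in siKEAP1/siCCNF. Against siKEAP1 these shares were 23.7% and 26.3%, and in the interaction 9.69% were positive and 9.91% negative. Depth limits the genes of low level more, but all members had enough counts to be tested.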
